A study of Drosophila melanogaster with 39 samples.

Results

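The trithorax group and Brahma complex genes described here are 10 genes of Drosophila melanogaster: trx, ash1, ash2, Trl, kis, brm, mor, osa, Snr1 and Bap60. They were chosen by name, and every probe whose gene number leads to them was taken, whatever its values. That gave 18 probes among 16361 gene probes, and 10 of the 11436 genes that the arrays name. Trl, kis, brm and mor have 3 probes each and the others 1 probe each. Unless another probe is named, a gene's values are those of its most often measured probe. These are CG9343h for Trl, CG3696 for kis, CG5942b for brm and CG4275a for mor.

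Trithorax group proteins keep genes active once they have been switched on, among them the homeotic genes, and so preserve what a cell has been determined to become. Polycomb group proteins act against them and keep genes silent. Some trithorax group proteins modify histones, and others use ATP to move or evict nucleosomes, as the Brahma complex, the SWI/SNF complex of the fly, does. In imaginal discs, the larval sacs that give rise to adult appendages, this memory keeps a leg disc cell on the leg fate through many divisions.

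The study asked which genes change when leg disc cells switch to a wing fate, which is called transdetermination, and each of its 39 arrays set 2 amplified RNA samples against each other in 2 dyes. Wingless (Wg), a signalling protein that triggers the switch, was over-expressed by heat shocks at 60 and 72 h after egg laying, and discs were taken 3 days later. Each value below is a log2 ratio, with the sample named first on top, so that 0 is no difference and -1 is 2 times less. Each array was centred on its median.

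The wild-type samples came from strain OregonR and carried no transgene. First leg discs of single male larvae, wandering late in the third instar, were set against a reference on 4 arrays. That reference pooled amplified RNA of the leg discs of all segments from wild-type males and females. For 9 arrays a wing disc and a leg disc came from the same larva, with 3 arrays for each leg segment. Dorsal cells, D(wt), were set against ventral cells of the same first leg discs, V(wt), on 3 arrays. The Wg-expressing discs came from y,w,hs-flp larvae that carried vgBE-GAL4/UASGFP together with Actinc5, FRT y+, FRT and wg+, and whole first leg discs of these were set against the reference on 6 arrays. In them GAL4 under the vg boundary enhancer makes green fluorescent protein in transdetermining (TD) cells, so TD cells were dissected by a reporter that marks the onset of vg expression. Dorsal cells without the reporter, D(wg), served as the partner of TD cells on 3 arrays, ventral cells, V(wg), on 5 and D(wt) cells on 2, and 3 arrays compared D(wg) with V(wg). Fragments were pooled from 4 to 8 discs for the arrays that compared TD, D(wg) and V(wg) cells with each other. The labels give no such number for the arrays that held D(wt) cells. The last 4 arrays held regenerating fragments, pieces of second leg discs kept in adult females for 3 to 5 days, and the reference. The labels give no heat shock for wild-type samples, so in any comparison of Wg-expressing with wild-type material Wg, heat shock and stock cannot be told apart. In tissue samples such as these, fewer cells of a kind and less RNA per cell cannot be told apart either.

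Between 18.15 and 89.54 percent of the gene probes had a value on an array, and precision is limited by how few arrays each comparison has. The wing selector gene vg was far higher in wing than in leg discs (5.63 ± 0.39, SE of the fit; adjusted p = 4.75e-09) and in TD cells than in D(wg) cells (3.76 ± 0.77; adjusted p = 0.00364) or V(wg) cells (3.59 ± 0.56; adjusted p = 0.000255). Dll, the distal leg selector gene, was lower in these 3 comparisons. All adjusted p-values are from limma, over all probes tested in a comparison, and a gene was called at an adjusted p below 0.05. A SE rests on the spread of the probe over all 39 arrays.

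On the 2 arrays of TD against D(wt) cells vg went against their labels. With the direction that the labels state, vg lay at -1.73 and -1.77 (-1.40 ± 0.81, SE; adjusted p = 0.305), so that cells chosen by a vg reporter would hold less vg RNA than wild-type cells. The probe named wg lay at -5.63 and -3.74 there and between 0.80 and 1.79 in Wg-expressing discs against the reference. The other wg probe, CG4889, had 1 value in TD against D(wt), -0.27, and lay between -1.27 and -0.24 in Wg-expressing discs, so the wg probes disagree. In D(wt) against V(wt) cells the probe named wg lay between -4.88 and -2.93, and CG4889 between -5.32 and -3.38. The 2 arrays of TD against D(wt) were also correlated with the other 8 TD arrays, over 5822 to 9741 shared probes. Replicate 1 gave r between -0.24 and 0.20, and replicate 2 gave only values below 0, between -0.39 and -0.01. The direction of this comparison is therefore called as labelled below, and values with the sign of both arrays turned are given beside it. wg was added to this check after its values were seen.

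The most calls among the 10 genes came from TD cells set against other cells of Wg-expressing discs. In TD cells the brm probe was 52.4 percent below the level of D(wg) cells, and the Trl probe was 48.3 percent less. Bap60 was 2.01 times higher. Of 9 genes tested 3 were called, 1 higher and 2 lower, against 17.8 percent of all probes tested. Against V(wg) cells 2 of 9 were called, brm and Trl, both lower, against 13.4 percent of all probes. The median of the genes tested was -0.03 against D(wg) and -0.12 against V(wg), so the group as a whole did not lie to 1 side of 0.

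brm encodes the ATPase that drives the Brahma complex. In TD against D(wg) cells its probe had values on 2 of the 3 arrays, -1.52 and -0.65. The fitted ratio was -1.07 ± 0.27 (SE; adjusted p = 0.0176). This call was lost on the comparison's own arrays without the dye term (-1.08; adjusted p = 0.0533) and with every array scaled to the same spread (-1.002; adjusted p = 0.103). Against V(wg) it had values on 4 of 5 arrays, -1.17, -1.03, -0.59 and -1.43. All 6 values were below 0, and the ratio against V(wg) was -1.05 ± 0.19 (adjusted p = 0.00221). D(wg) and V(wg) cells showed no called difference, with values of 0.88 and -0.15 (0.35 ± 0.28; adjusted p = 0.472).

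Trl encodes GAGA factor, a DNA-binding protein that opens chromatin at promoters. Its probe CG9343h lay at -0.73, -1.604 and -0.47 against D(wg), a ratio of -0.95 ± 0.24 (SE; adjusted p = 0.00784). Against V(wg) it lay at -1.15, -0.80, -0.80, -0.36 and -0.33, a ratio of -0.70 ± 0.19 (adjusted p = 0.0112). It was below 0 on 8 of 8 arrays. Leaving out replicate 2 against D(wg) gave -0.60 (adjusted p = 0.186), and leaving out replicate 1 against V(wg) gave -0.59 (adjusted p = 0.102). Calls over all probes fell too, from 1640 of 9189 to 473 of 8869 against D(wg). Against V(wg) they fell from 1171 of 8716 to 577 of 10528. In D(wg) against V(wg) CG9343h had 1 low value, -1.49, beside 0.03 and -0.04 (-0.49 ± 0.24; adjusted p = 0.25).

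The other probes of brm and Trl did not share these values. brm probe CG18438, which carries an older gene number merged into brm, lay at 0.50 and 0.11 against D(wg) (0.30 ± 0.26; adjusted p = 0.453), and at 0.74, -0.04 and 0.20 against V(wg), too few arrays for a test. On the 4 arrays of TD against D(wg) or V(wg) cells that measured both, CG5942b was below CG18438 by log2 differences of -0.99 to -2.02, with a median of -1.77. The probe CG5942a had 1 value in each comparison, 0.14 and 0.10. Trl probe CG9343f was above 0 on all 8 TD arrays. It lay at 0.15, 0.59 and 0.19 against D(wg) (0.32 ± 0.17; adjusted p = 0.192) and between 0.11 and 0.78 against V(wg) (0.38 ± 0.13; adjusted p = 0.0543). CG9343h was below CG9343f on 8 of 8 of these arrays, with a median difference of -0.93, and below CG9343g on 6 of 6, with a median difference of -0.82. Over 37 arrays CG9343h and CG9343f had a Pearson correlation of -0.37, a description with no test, whereas the 3 probes of mor had 0.95 to 0.97. With the probes of a gene averaged, brm came to -0.31 (adjusted p = 0.204) and -0.38 (adjusted p = 0.098), and Trl to -0.27 (adjusted p = 0.257) and -0.03 (adjusted p = 0.897), against D(wg) and V(wg) in this order. The sources used here do not say which transcripts each probe matches. In release 6 of the genome annotation CG17026, CG17027, CG17028 and CG17029 overlap brm, and CG42507 and Tsen34 overlap Trl.

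**Figure D1:**
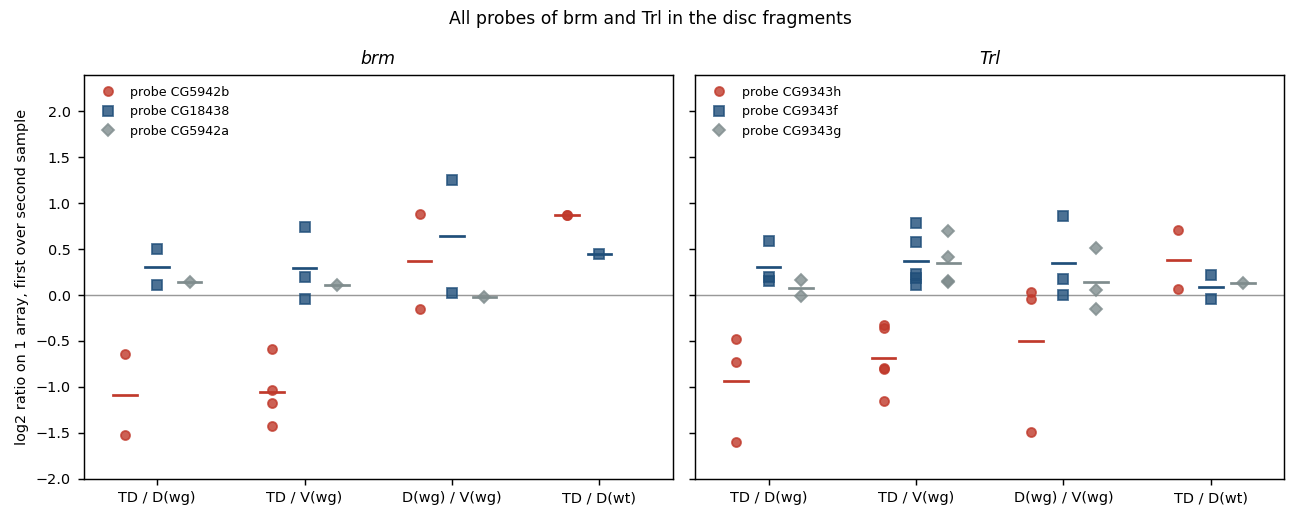
Log2 ratios of every probe of brm (left) and Trl (right) on the arrays of disc fragments; each point is 1 array, bars are means of the points, and TD against D(wt) is drawn as labelled. The probes CG5942b and CG9343h lie below 0 on every array of TD against D(wg) or V(wg) cells that measured them, while CG9343f lies above 0 on all 8.

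Bap60 encodes a core subunit of the Brahma complex that contacts transcription factors. It lay at 0.45, 1.03 and 1.45 in TD against D(wg) cells, all above 0, a ratio of 1.01 ± 0.36 (SE; adjusted p = 0.047). Against V(wg) it lay at 2.10, 0.59, 0.30, 0.45 and 0.04 (0.71 ± 0.28; adjusted p = 0.0831). All 8 arrays were above 0, but the first of these 5 was far above the rest. The call against D(wg) was lost on the values as deposited (0.96; adjusted p = 0.0577) and without replicate 2 (0.95; adjusted p = 0.189) or replicate 3 (0.81; adjusted p = 0.252). Without replicate 2, 473 of 8869 probes were called, and without replicate 3, 601 of 6946, against 1640 of 9189 on all arrays.

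mor, whose product is the scaffold of the complex, and ash2 had the same sign as Bap60 without a call for their main probes. mor lay at 0.29, 1.10 and 0.76 against D(wg) (0.72 ± 0.35; adjusted p = 0.15), where its probe CG4275b was called (0.81 ± 0.26; adjusted p = 0.03) and CG4275c was not (0.65 ± 0.27; adjusted p = 0.0923). Against V(wg) mor lay at 1.35, 0.33, -0.06, 0.65 and -0.04 (0.44 ± 0.27; adjusted p = 0.305). ash2, a subunit shared by the histone methyltransferase complexes of the group, lay at 0.29, 0.71 and 1.54 against D(wg) (0.85 ± 0.34; adjusted p = 0.0764), and scaling every array to the same spread gave 0.80 (adjusted p = 0.045). Against V(wg) its values of 1.78, 0.30, 0.11, -0.08 and -0.03 gave 0.42 ± 0.26 (adjusted p = 0.321).

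osa and Snr1, the remaining Brahma complex genes, were not called in TD cells. osa encodes the subunit that marks the BAP form of the complex. It lay at -0.10, -0.49 and -0.93 against D(wg) (-0.51 ± 0.21; adjusted p = 0.0814) and at -0.90, -0.36, -0.60, 0.22 and -0.42 against V(wg) (-0.42 ± 0.16; adjusted p = 0.0845). Without replicate 4, the array above 0, the ratio against V(wg) was -0.57 (adjusted p = 0.0291). Snr1, the fly counterpart of the yeast subunit Snf5, lay at -0.06, -0.27 and 0.14 against D(wg). Its 95 percent interval there ran from -0.32 to 0.25. Against V(wg) its 5 values spread from -0.51 to 0.36 (-0.20 ± 0.11; adjusted p = 0.236).

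trx, ash1 and kis gave less information. trx encodes a histone methyltransferase and gave the group its name. It had values of -0.69 and -0.13 against D(wg) (-0.41 ± 0.25; adjusted p = 0.281), and of -0.49, -0.13, -0.04 and 0.11 against V(wg) (-0.12 ± 0.18; adjusted p = 0.733). ash1, another histone methyltransferase, had 1 value against D(wg), -0.29, and 3 against V(wg), -0.01, 0.18 and 0.47, too few to test. kis encodes a chromatin remodeller of the CHD family that acts in transcription elongation. It lay at 0.10, -0.06 and 0.50 against D(wg) (adjusted p = 0.793) and between -0.81 and 1.66 against V(wg) (adjusted p = 0.641), where its arrays disagreed most of all 10 genes.

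**Figure D2:**
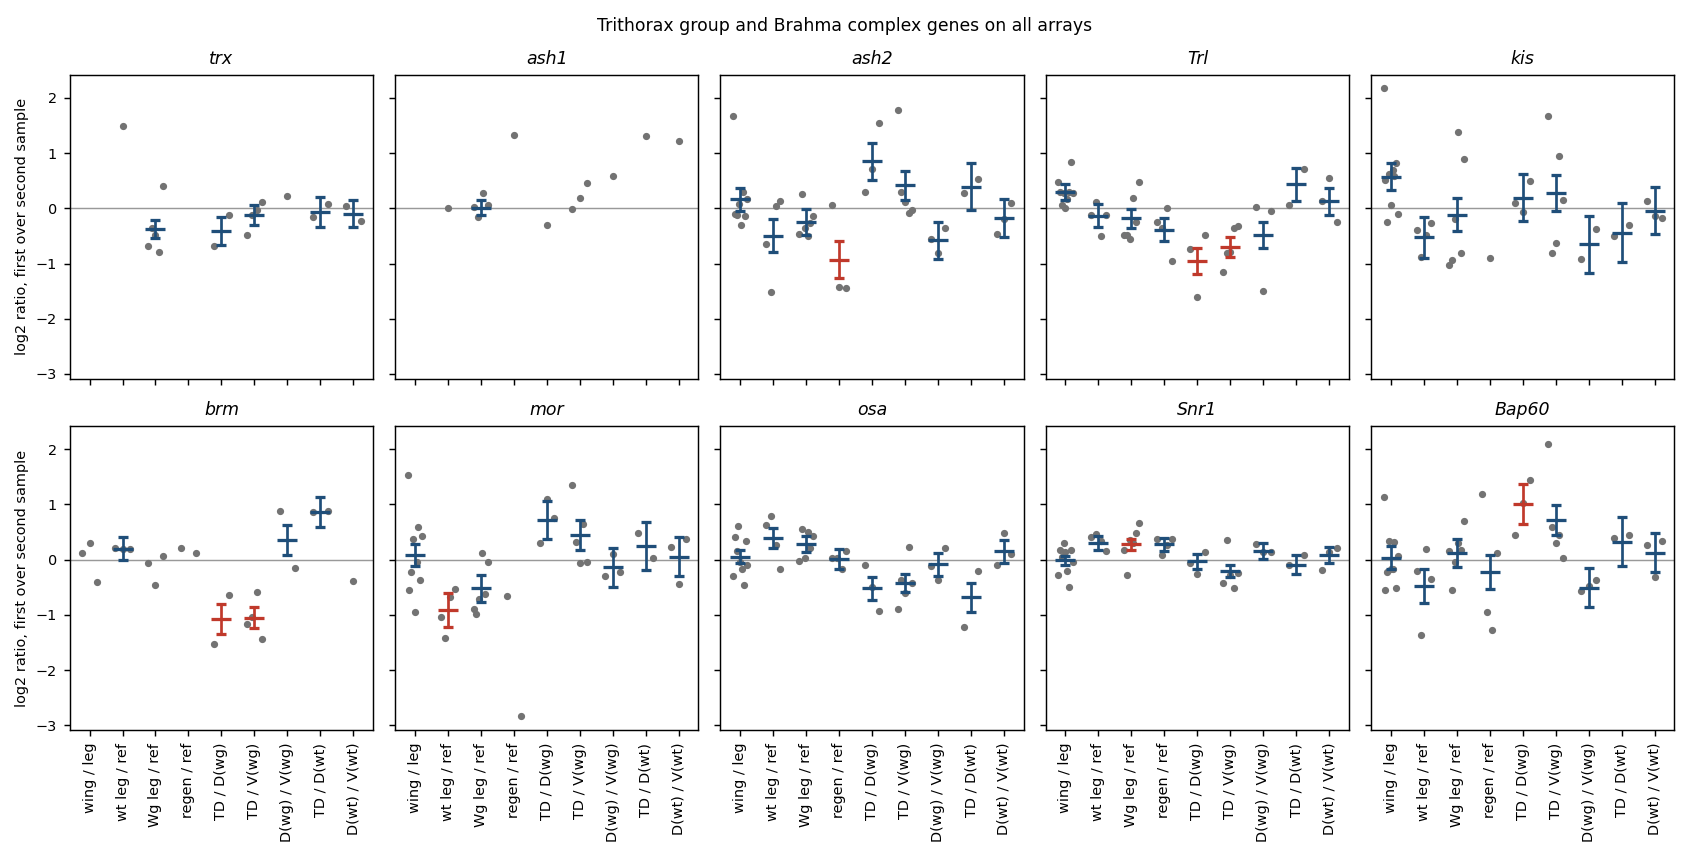
Log2 ratios of the 10 genes by comparison (horizontal axis; ref, pooled leg reference; wt, wild type; TD against D(wt) as labelled), 1 probe a gene; points are arrays and bars the fitted ratio ± SE where enough arrays had a value, red where the adjusted p was below 0.05. brm and Trl are below 0 in both TD comparisons with Wg-expressing cells, and trx, ash1 and brm lack values on many arrays.

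Markers of other cell types were counted beside these results. Of 8 myoblast and muscle markers on the arrays 4 were tested in each of the 2 comparisons. Only zfh1 was called among them, lower in TD cells than in D(wg) (-0.56) and V(wg) cells (-0.58). Of 6 larval fat body markers 2 were tested in each and none was called (medians 0.42 and 0.25), and 1 haemocyte marker and 1 trachea marker were tested and not called. The part of such cells in the values of brm, Trl and Bap60 was not tested.

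The wider trithorax group gave calls in both directions, and most of its genes were not called. Of 35 other trithorax group and Brahma genes on the arrays 32 were tested in TD against D(wg) cells, where 5 were higher and 5 lower, which is 31.2 percent against 18.6 percent of all named genes tested. The median ratio of the list was 0.00, and that of all named genes 0.05. Among those with the smallest p were Act5C, an actin that is also a subunit of the Brahma complex (1.65 ± 0.32, SE), wds, a subunit shared by histone methyltransferase and acetyltransferase complexes (0.89 ± 0.18), Hcf, a cofactor in such complexes (1.31 ± 0.34), and e(y)3, a subunit of the PBAP form of the Brahma complex (-1.11 ± 0.29). Against V(wg) cells 2 of 30 were higher, wds (0.85 ± 0.14) and Act5C (1.01 ± 0.25), and 1 lower, Ino80, the ATPase of another remodelling complex (-0.47 ± 0.16), which is 10 percent against 13.9 percent of all named genes.

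Among the Polycomb group genes, the opposing group, 2 of 19 tested were higher and 5 lower in TD than in D(wg) cells, or 36.8 percent against 18.6 percent of all named genes. Su(z)2 (-1.54 ± 0.30, SE), crm (-1.10 ± 0.19) and phol, which encodes a DNA-binding protein that recruits the others (-0.98 ± 0.19), were lower, and Pc was higher (0.67 ± 0.14). Against V(wg) cells 1 of 19 was higher, esc (0.73 ± 0.17), and 2 lower, crm (-0.50 ± 0.15) and phol (-0.43 ± 0.15), or 15.8 percent against 13.9 percent of all named genes.

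**Figure D3:**
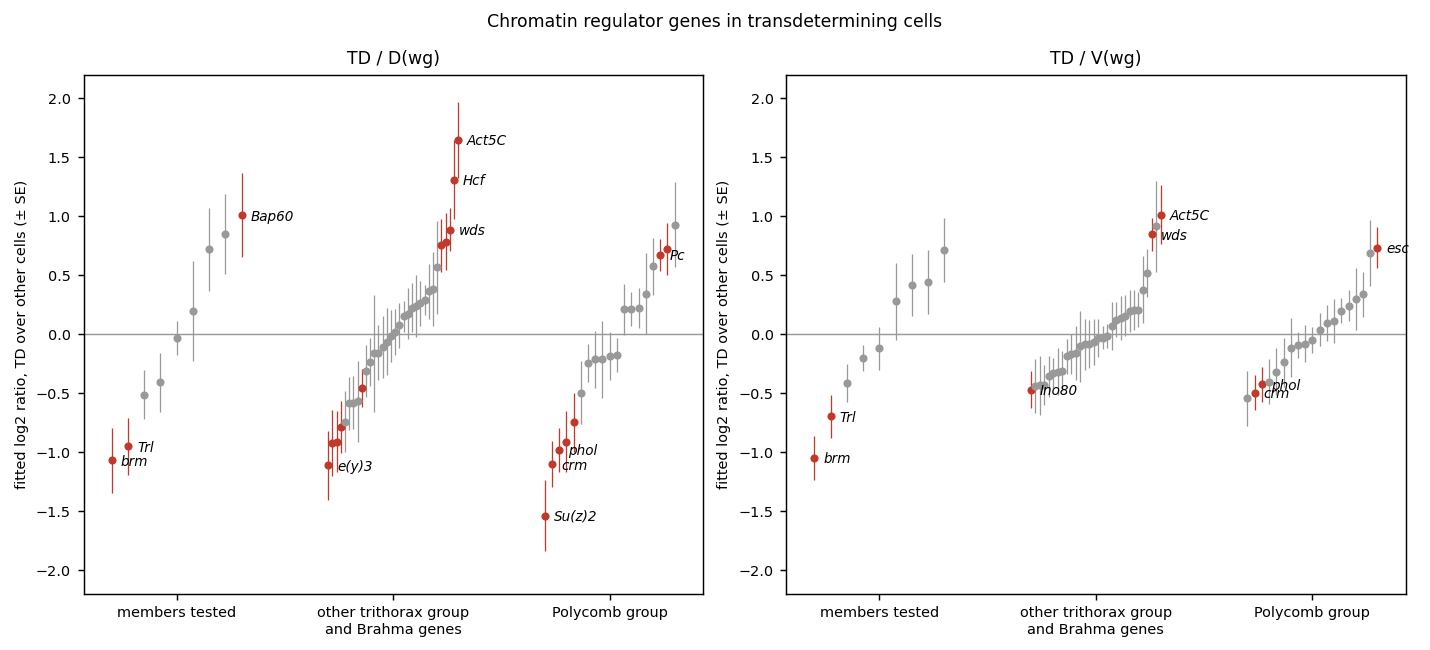
Fitted log2 ratios ± SE of the tested genes of each list in TD against D(wg) cells (left) and against V(wg) cells (right), ordered by value within a list; red points were called and those with the smallest p are named. All lists hold genes above and below 0, and brm is the lowest of the 9 members in each panel.

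TD cells against D(wt) cells rest on the 2 arrays whose direction is in doubt. The first-named sample had the same dye on both, so this comparison has no dye swap. None of 9 genes tested was called by limma, 2 had an unadjusted p below 0.05, and 9.37 percent of all probes were called. The brm probe lay at 0.87 and 0.88 as labelled, close together, with a ratio of 0.86 ± 0.27 (SE; adjusted p = 0.0669). With the sign turned it was -0.89 (adjusted p = 0.0655). On the values as deposited it was called as labelled (0.97; adjusted p = 0.0446) and not when turned (-0.85; adjusted p = 0.0786). With the 2 arrays fitted alone without a dye term it was called in either direction (0.87 as labelled, -0.87 turned; adjusted p = 0.0113). Dye and sample cannot be told apart in that fit. osa was next, at -1.23 and -0.20 (-0.68 ± 0.26; adjusted p = 0.096), or 0.75 turned (adjusted p = 0.0737). Trl lay at 0.07 and 0.70 (0.43 ± 0.30; adjusted p = 0.398), or -0.34 turned (adjusted p = 0.543). The other 6 tested had ratios from -0.44 for kis to 0.39 for ash2 as labelled, with adjusted p-values of 0.625 or more, and from -0.51 for Bap60 to 0.36 for kis turned, with 0.533 or more. ash1 had 1 value, 1.31 as labelled or -1.31 turned. Of 6 fat body markers 3 were tested and 2 called higher in TD cells as labelled, Lsp1beta (1.38) and Lsp2 (0.84). With the sign turned only Lsp1beta was called, lower (-1.28; adjusted p = 0.00561), and Lsp2 was not (-0.54; adjusted p = 0.114). The part of such cells was not tested.

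No gene was called between dorsal and ventral cells of the same discs. None of 8 genes tested was called by limma in D(wg) against V(wg), and 0 had an unadjusted p below 0.05, with 0.266 percent of all probes called. The ratios ran from -0.65 ± 0.52 (SE) for kis to 0.35 ± 0.28 for brm. ash2, at -0.56, -0.81 and -0.36 (-0.58 ± 0.34), and Bap60, at -0.57, -0.47 and -0.37 (-0.51 ± 0.36), were below 0 on all 3 arrays. In D(wt) against V(wt) none of 8 was called, 0 had an unadjusted p below 0.05, and 0.694 percent of all probes were called. The ratios there ran from -0.18 ± 0.34 for ash2 to 0.16 ± 0.21 for osa. The difference between these dorsal-ventral ratios was called for none of 7 genes, with 0 at an unadjusted p below 0.05 and 0.115 percent of all probes called. The ratio of TD to V(wg) cells taken through D(wg) and taken directly was called as different for none of 8 genes, with 0 at an unadjusted p below 0.05 and 0 percent of all probes called. In data simulated for D(wg) against V(wg), 5 percent of probes given a log2 change of 0.5 were called.

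In normal discs, wing against leg, no member was called. Of 7 genes tested 0 were called by limma and 2 had an unadjusted p below 0.05, Trl and kis, where 4.53 percent of all probes were called. kis lay between -0.25 and 2.17 on 9 arrays, with a median of 0.58, and was above 0 on 7 of them (0.57 ± 0.24, SE; adjusted p = 0.293). Trl lay between 0.00 and 0.83, with a median of 0.28, and was above 0 on all 9 (0.29 ± 0.14; adjusted p = 0.392). Scaling every array to the same spread gave 0.40 for this Trl probe (adjusted p = 0.0474), with 619 of 6648 probes called. Trl probe CG9343f did not share this, with 4 arrays above 0 and 4 below (0.005 ± 0.107; adjusted p = 0.998). Probe CG9343g had 3 values, between 0.23 and 0.63, too few for a test. The 95 percent intervals of the other ratios were narrow for Snr1, from -0.18 to 0.15, and osa, from -0.19 to 0.30, and wider for mor, from -0.33 to 0.50, Bap60, from -0.38 to 0.46, and ash2, from -0.27 to 0.60. trx and ash1 had no value on these 9 arrays, and brm had 3, between -0.41 and 0.29. On the wider list 0 of 31 other trithorax group and Brahma genes were called against 4.57 percent of all named genes. Of 18 Polycomb group genes 1 was called, Su(z)2, higher in wing discs (0.68 ± 0.17; adjusted p = 0.0134).

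Whole leg discs were compared through the shared reference, so the next comparisons have that RNA in common. In wild-type first leg discs mor was lower than in the reference, at -1.04, -1.42, -0.68 and -0.52, which is 47.0 percent less (-0.92 ± 0.31, SE; adjusted p = 0.0382). It was the only call among 8 genes tested, against 17.8 percent of all probes. Probe CG4275b was called as well (-0.83 ± 0.23; adjusted p = 0.0154), and CG4275c was not (-0.70 ± 0.27; adjusted p = 0.0723). The call of mor was lost without replicate 1 (-0.87; adjusted p = 0.143), replicate 2 (-0.75; adjusted p = 0.206) or replicate 3 (-0.99; adjusted p = 0.06). In these fits 335 of 8613, 334 of 8410 and 1130 of 8572 probes were called, against 1413 of 7918 on all 4 arrays. On the 3 arrays of slide series 5 mor was -1.02 (adjusted p = 0.04), and osa was called there too (0.61; adjusted p = 0.043). On all 4 arrays osa lay at 0.63, 0.79, 0.26 and -0.16 (0.39 ± 0.18; adjusted p = 0.127). Beside this, 4 of 4 tested fat body markers were lower in wild-type first leg discs, from Lsp1gamma (-4.01) to Lsp1beta (-0.95) with a median of -3.16. Of 6 tested myoblast and muscle markers 2 were called, both lower, Mhc (-3.82) and Act57B (-2.12), and the median of the list was -0.35. The part of fat body and muscle cells in the value of mor was not tested.

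The other 7 genes tested in wild-type discs were not called. Snr1 lay at 0.41, 0.46, 0.34 and 0.15 (0.30 ± 0.12; adjusted p = 0.0859) and kis at -0.39, -0.88, -0.48 and -0.27 (-0.52 ± 0.37; adjusted p = 0.326), each on 1 side of 0. The 3 values of brm were 0.21, 0.19 and 0.20 (adjusted p = 0.538). Of 31 other trithorax group and Brahma genes 2 were higher, Mi-2 (0.87) among them, and 6 lower, among them dom (-0.82) and tna (-1.13). That is 25.8 percent against 18.1 percent of all named genes, while 0 of 18 Polycomb group genes were called.

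In Wg-expressing first leg discs Snr1 was the only gene called of 9 tested, against 21.1 percent of all probes. It lay between -0.28 and 0.66 on 6 arrays, with a median of 0.33, and was above 0 on 5. The ratio was 0.28 ± 0.10 (SE; adjusted p = 0.0399), a change of 1.22 times. The call was lost without any 1 of replicates 1, 3, 4, 5 and 6 (0.22 to 0.30). In those fits 1625 to 2554 probes were called, against 2587 on all 6 arrays. On the 5 arrays of slide series 7 the ratio of Snr1 was 0.30 (adjusted p = 0.0503). mor lay between -0.98 and 0.13 with a median of -0.67 (-0.52 ± 0.25; adjusted p = 0.135). trx, with 5 values of -0.67, -0.35, -0.49, -0.78 and 0.41, had a ratio of -0.37 ± 0.16 (adjusted p = 0.121), and without replicate 6, the array above 0, -0.62 (adjusted p = 0.00663). ash1 could be tested here alone and lay at 0.02, -0.16, 0.28 and 0.06 (0.01 ± 0.13; adjusted p = 0.965). brm had 3 values, -0.06, -0.45 and 0.07, too few for a test. No probe of kis was called, with -0.11 ± 0.30 for CG3696 (adjusted p = 0.819). CG18326 was at -0.28 ± 0.21 (adjusted p = 0.398) and CG3660 at -0.03 ± 0.12 (adjusted p = 0.879). Of 34 other trithorax group and Brahma genes 3 were higher and 3 lower, or 17.6 percent against 22.4 percent, with Mi-2 (0.68) and Cfp1 (0.35) higher and Mnn1 (-0.79) and E(bx) (-0.86) lower. In the same discs 4 of 6 tested muscle and myoblast markers were lower (median of the list -0.80) and 0 of 4 fat body markers were called, and the part of such cells in the value of Snr1 was not tested.

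Between Wg-expressing and wild-type first leg discs, set against each other through the reference, none of 7 genes tested was called. 0 had an unadjusted p below 0.05 in limma, and 6.64 percent of all probes were called. The differences ran from -0.11 ± 0.23 (SE) for osa to 0.60 ± 0.40 for Bap60, and for Snr1 the 95 percent interval ran from -0.34 to 0.31. Of 4 fat body markers 3 were higher in Wg-expressing discs in this comparison (median 3.13). The Wg-expressing arrays were of slide series 7 and 6 and the wild-type ones of series 5 and AK. Slide series can therefore not be told apart from Wg, heat shock and stock here.

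In regenerating fragments only 5 genes had enough values for a test, and 40.6 percent of all probes tested were called. ash2 was called, lower than in the reference at 0.06, -1.43 and -1.43 (-0.93 ± 0.34, SE; adjusted p = 0.0291), which is 47.5 percent less. Its first array lay at 0, and leaving out either of the others ended the call (-0.69 with adjusted p = 0.209, and -0.64 with adjusted p = 0.282). In these fits 1215 of 3904 and 1118 of 4225 probes were called, against 1579 of 3885 on all arrays. Bap60 spread from -1.27 to 1.19 on 4 arrays (-0.23 ± 0.31; adjusted p = 0.578), and without replicate 1, the array at 1.19, it was -0.75 (adjusted p = 0.0483). mor, Bap60 and ash2 were then the genes called of 7 tested, all lower, while 2115 of 4885 probes were called. mor had 2 values, -0.66 and -2.84, too few for a test on all 4 arrays. Its probe CG4275c had 1 value, 0.02, on the array where CG4275a lay at -0.66. Snr1 lay at 0.38, 0.08, 0.27 and 0.37 (0.28 ± 0.12; adjusted p = 0.0684), osa between -0.17 and 0.16 (0.01 ± 0.18; adjusted p = 0.963) and Trl between -0.95 and 0.01 (-0.39 ± 0.21; adjusted p = 0.138). Trl probe CG9343f differed in direction from CG9343h here as well, at 0.37, 0.27 and 1.12 (0.60 ± 0.17; adjusted p = 0.00659). Of 19 other trithorax group and Brahma genes 4 were higher and 5 lower, or 47.4 percent against 41.7 percent of all named genes, with Set1 (-1.01), vtd (-1.18) and Act5C (-1.32) lower and e(y)3 (0.98) higher. Of 3 tested muscle and myoblast markers Mef2 was higher (1.68), and no fat body marker was measured often enough.

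Through the reference, regenerating fragments against wild-type first leg discs gave calls for 0 of 5 genes, with 0 at an unadjusted p below 0.05 in limma and 19.7 percent of all probes called. Wg-expressing discs against regenerating fragments also gave 0 of 5, with 0 at an unadjusted p below 0.05 and 27.1 percent of all probes called. Leaving out replicate 1 of the fragments gave 1.19 for ash2 in the last comparison (adjusted p = 0.0453). Probe CG9343f of Trl was called in both, at 0.77 (adjusted p = 0.0185) and -0.63 (adjusted p = 0.0245). The fragment arrays were of slide series 5 and the Wg-expressing ones of series 7 and 6. Slide series and sample can therefore not be told apart between fragments and Wg-expressing discs.

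Across arrays ash2, mor and Bap60 moved in parallel. ash2 and Bap60 had a Pearson correlation of 0.84 over 37 arrays, mor and Bap60 0.81 over 37, and mor and ash2 0.77 over 36. Of the probes compared with ash2, 1.82 percent were as close to it as Bap60 or closer, and 5.72 percent as close as mor or closer. For Bap60, 2.89 percent were as close to it as mor or closer. With mor probe CG4275c the correlations were lower, 0.61 with ash2 over 34 arrays and 0.66 with Bap60 over 35. osa and Snr1 correlated at 0.50 over 39 arrays and with mor at -0.47 and -0.52 over 37. For osa, 6.83 percent of probes were as close to it as Snr1 or closer. kis was nearest to mor among the members (0.64 over 35 arrays), and Trl to osa (0.37 over 39). As close or closer were 7.34 percent of the probes compared with kis and 12.1 percent of those compared with Trl. Another kis probe, CG3660, had only 12 arrays in common with CG3696 and with mor. It correlated there with CG3696 at -0.43 and with mor at -0.64, so the likeness of kis and mor differed in sign between probes. These are descriptions without a test, over arrays that share samples, slides and the centring. brm, trx and ash1 had values on 22, 17 and 13 arrays, under the 30 required here. Genes outside the list came closer than any member did. The nearest to ash2 was Map60 (0.95), to Bap60 AsnRS (0.94), to mor Tdrd3 (0.93), to kis trio (0.92), to Snr1 Hou (0.83), to osa RhoGEF2 (0.80) and to Trl kel (0.79), genes named after their values were seen.

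Some of the arrays with the largest values of mor, ash2 and Bap60 were wide over all probes, and others were not. Replicate 1 of wing against first leg discs had ash2 at 1.67, mor at 1.53, Bap60 at 1.13 and kis at 2.17. Its spread over all probes was 0.634, against 0.240 to 0.389 on the other 8 wing arrays. Spread here is the median absolute deviation of the log2 ratios, scaled up to estimate an SD. Replicate 1 of TD against V(wg) cells had Bap60 at 2.10, ash2 at 1.78, kis at 1.66 and mor at 1.35. The spread of that array was 0.734, against 0.258 to 0.446 on the other 4. On replicate 3 of the regenerating fragments, the widest of all arrays at 0.962, mor lay at -2.84, ash2 at -1.43 and Bap60 at -1.27. On replicate 3 of TD against D(wg) cells ash2 was at 1.54 and Bap60 at 1.45, and the spread was 0.456, below the 0.609 of replicate 2. With every array scaled to the same spread, Bap60, ash2 and Trl were called in TD against D(wg) cells and brm was not.

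**Figure D4:**
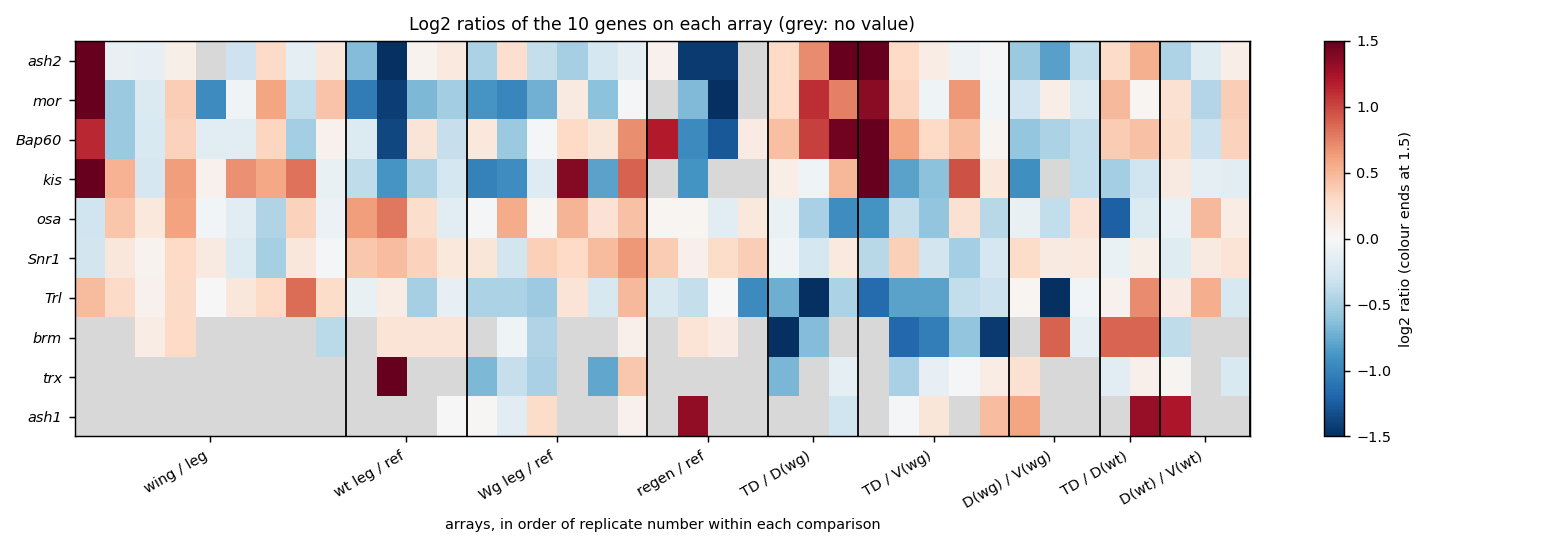
Log2 ratios of the 10 genes (rows, 1 probe a gene) on all 39 arrays (columns, by comparison and then replicate), red above 0, blue below 0 and grey without a value; TD against D(wt) is drawn as labelled. ash2, mor and Bap60 share their strongest arrays, and brm and Trl are blue in TD against D(wg) and V(wg) cells.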

How the data were processed

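Per the labels, RNA went through 2 rounds of amplification and was labelled with Cy3 and Cy5 for 2-colour arrays. The authors deposited 1 log2 ratio per probe, made, per the labels, as the sample named second divided by the one named first. The base was read from the range of the values, since the labels name none. The sources used here give neither the authors' normalisation and spot filter nor a genome build. Of 16505 probes 144 were control spots, and gene names came from release 6 locus tags (12612 current, 2720 older, 34 by symbol).

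Signs were turned to first over second and each array was centred on its median. A least-squares model with 11 group coefficients (wing against leg split by segment and averaged) and a dye term was fitted per probe to all 39 arrays, and its variance was moderated with eBayes in limma 3.58.1 (R 4.3.3, data.table at 1.17.8; prior degrees of freedom 3.57, prior SD 0.279). Probes with values on at least 2 arrays and 66.7 percent of the arrays of a category were tested, two-sided, with Benjamini-Hochberg adjustment over all probes tested, and called at 0.05. Contrasts were computed exactly for probes with missing values. Plots were drawn with matplotlib 3.10.9 from tables made with pandas 2.3.3 and numpy 2.4.6 in Python 3.11.15. The series calls the arrays of a category independent replicates. The labels do not say whether categories share RNA extracts.

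All 10 members are described in every comparison, with up to 4 genes of smallest p from each other list. The members and lists were chosen with earlier results of these data known. In data simulated for TD against D(wg) cells the model found 65 percent of probes given a log2 change of 1 and 13 percent of those given 0.5, and 11.4 percent of its calls were false. For TD against V(wg) cells these were 89, 29 and 5.6 percent. The simulations changed only a small part of the probes and gave each probe noise of the same spread on every array. In the data 17.8 percent of probes were called in TD against D(wg) cells, and arrays differed in spread. The simulated shares may therefore not hold there.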

Additional observations from a re-analysis of the deposited data

Results flagged for a closer look

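Of 52 groups of 4 to 10 values that were examined, each 1 probe of a member in 1 comparison, 4 held a value whose gap to the rest passed Dixon's 95 percent limit, where chance alone gives about 1 in 20 groups. They lie on 2 arrays. On replicate 1 of wing against first leg discs ash2 was at 1.67 and kis at 2.17. On replicate 1 of TD against V(wg) cells ash2 was at 1.78 and Bap60 at 2.10. Without the first of these arrays no member was called in wing against leg discs, as with it. Without the second, brm was still called in TD against V(wg) cells (-1.05; adjusted p = 0.00389) and Trl was not (-0.59; adjusted p = 0.102). In that fit 577 of 10528 probes were called, against 1171 of 8716 on all arrays.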

How the results depend on the processing

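Of the alternatives set out in advance, 129 counts of called members stayed within 1.5 times the reported count and 29 moved. Counts that were 0 and stayed 0 are among the 129, and a count can stay while its genes change. In TD against D(wg) cells scaled to 1 spread it stayed at 3, with ash2 called and brm not. For single genes 1064 values kept their side of the threshold, 27 lost a call, 10 gained one and none reversed. Genes that an alternative left with too few values to test are not in these numbers. The number of all probes called moved as well. On the values as deposited 1 member was called in TD against D(wt) cells (brm). There 745 of 7755 probes were called, and 727 in the reported fit. With every array scaled to 1 spread, 1 was called in wing against leg discs (Trl), 0 in Wg-expressing discs and 0 in regenerating fragments. In this order 619 of 6648, 2132 of 12253 and 514 of 3885 probes were called, against 301, 2587 and 1579 in the reported fit. With a value required on every array, 1 was called in TD against V(wg) cells and 0 in fragments. Over all probes 1015 of 6045 and 1163 of 2681 were called. With probes averaged, 0 were called in wild-type discs, 1 in TD against D(wg) cells (Bap60) and 0 in TD against V(wg) cells. Over all averages 1150 of 6680, 1323 of 7529 and 973 of 7307 were called. On a comparison's own arrays without the dye term, 0 were called in Wg-expressing discs, 1 in TD against D(wt) cells and 0 in fragments. Over all probes 1952 of 12253, 1518 of 7755 and 426 of 3885 were called. On slides of 1 series, 2 were called in wild-type discs and 0 in Wg-expressing discs. Over all probes 1560 of 8611 and 2529 of 12186 were called. Leaving out 1 array gave 0 to 2 in wild-type discs, 0 to 1 in Wg-expressing discs, 0 to 2 in TD against D(wg), 1 to 3 in TD against V(wg), 0 to 3 in fragments and 0 to 1 in Wg-expressing discs against fragments. In TD against D(wg) the 0 came without replicate 2, where brm could not be tested. With 1 array left out, 334 to 1647 probes were called in wild-type discs and 1625 to 2554 in Wg-expressing discs. For TD against D(wg) these were 473 to 1153, for TD against V(wg) 577 to 1074 and for fragments 1118 to 2115. The cause of these moves was not tested. TD against D(wt) cells was not run with 1 array left. Turning or leaving out those 2 arrays, chosen after seeing the data, moved no count by over 1.5 times in the shared fit. Turned and fitted alone without the dye term, 1 member was called (brm, -0.87, by construction the reverse of the labelled value), and without them Bap60 in TD against D(wg) missed the threshold (1.01; adjusted p = 0.0524). No paired analysis was possible because the labels give the arrays no replicate numbers. Spot intensities were not used, so signal over background is unknown.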
